A study of Homo sapiens with 2 samples.

Results

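The genes described here are 10 members of the matrix metalloproteinase (MMP) system: the gelatinases MMP2 and MMP9, the secreted enzymes MMP11 and MMP28, the membrane enzymes MMP14 and MMP15, and the tissue inhibitors of metalloproteinases TIMP1, TIMP2, TIMP3 and TIMP4. They were chosen by name among the 30484 gene names on the array, and all 13 probes that carry these names are given. RNA came from SAS cells, an established human line of a tongue squamous carcinoma, and from eSAS cells, which remained after 5 rounds in which large spheroids of SAS cells were caught on a removable membrane (Spheroid Catch). The labels name no transgene or drug for either population, both were kept in Dulbecco's medium with fetal bovine serum, and RNA was taken in the log phase of growth. eSAS is a single selected population and not a set of independently selected lines. Each population was measured on 1 array, so no test between them was possible, no p-value is given, and precision is limited by having so few arrays.

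MMPs are zinc-dependent proteases that cleave the extracellular matrix. Gelatinases digest denatured collagen and the type IV collagen of basement membranes, and in squamous carcinomas they are known for their part in invasion. They are made as inactive proenzymes. MMP14, anchored in the plasma membrane, activates proMMP2 in a complex in which TIMP2 bridges the proteins, and free TIMPs block the active sites of MMPs.

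No promoter entry was available for MMP2, MMP9, MMP28 or TIMP2. TIMP4, TIMP3 and TIMP1 had the largest differences among the inhibitors, none of which passed 2-fold. The promoters of these 3 of the 4 TIMP genes are printed here. Each is the stretch of 250 bases before the gene's start from RefSeq (GRCh38.p14), 5′ to 3′ on the gene's own strand, with motif matches in capitals. TIMP1 lies at chrX:47582186-47582435 (plus strand), TIMP3 at chr22:32801455-32801704 (plus strand) and TIMP4 at chr3:12158913-12159162 (minus strand).
TIMP1: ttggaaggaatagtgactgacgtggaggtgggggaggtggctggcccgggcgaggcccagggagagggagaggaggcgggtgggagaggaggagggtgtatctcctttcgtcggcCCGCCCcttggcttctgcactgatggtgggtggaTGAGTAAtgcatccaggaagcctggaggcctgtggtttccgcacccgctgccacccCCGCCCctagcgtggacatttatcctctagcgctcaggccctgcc
TIMP3: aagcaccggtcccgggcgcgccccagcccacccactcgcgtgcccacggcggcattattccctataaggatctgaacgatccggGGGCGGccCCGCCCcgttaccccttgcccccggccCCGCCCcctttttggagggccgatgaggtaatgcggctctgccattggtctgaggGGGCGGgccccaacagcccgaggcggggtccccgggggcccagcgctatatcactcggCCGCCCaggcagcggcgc
TIMP4: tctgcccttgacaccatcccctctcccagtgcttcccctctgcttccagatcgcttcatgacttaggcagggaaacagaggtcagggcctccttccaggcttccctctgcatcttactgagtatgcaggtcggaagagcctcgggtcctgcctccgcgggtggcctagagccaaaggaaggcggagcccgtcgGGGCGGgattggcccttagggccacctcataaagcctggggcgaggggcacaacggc
Motifs were searched on both strands as TGANTCA (the AP-1 site), TGAGTNA (a variant that overlaps it), GGGCGG (the GC box, read as CCGCCC on the other strand) and TATAAA. The GC box was found 2 times in TIMP1, 5 times in TIMP3 and once in TIMP4, and 42.6% of 35116 promoters of this length held it. The variant TGAGTNA was matched in TIMP1 alone among the 6 members with a promoter entry, 101 bases before the start, and 10.8% of all promoters held it. TGANTCA, held by 6.57% of all promoters, and TATAAA, held by 10.7%, were not found in these 6 windows. The other 3 windows, of MMP11, MMP14 and MMP15, held the GC box 3, 1 and 5 times. A match describes letters and not binding.

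With the background subtraction of the deposited signals, the gelatinase MMP2 fell in eSAS cells by at least 2.85-fold, and MMP9 was 1.31-fold lower. Under other background corrections the MMP2 difference was under 2-fold or turned in sign, as given below. Values are processed signals, which are linear intensities after background subtraction, and folds were taken after division by each array's 75th percentile over its probes, which was 1242 for SAS and 1196 for eSAS. With no replicate arrays, "rose" and "fell" are used only for a fold or bound of at least 2. In these bulk samples, fewer cells making a transcript and less of it per cell cannot be told apart.

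MMP2 was measured at 10 spots of the same probe (chr16:54096763-54096822, hg18, the build of the array design). The signals on the SAS array were 39.1 at the lowest spot, 46.9 at the median and 50.2 at the highest. On the eSAS array they were 3.14, 4.02 and 10.7. The spots did not overlap between the arrays, and 10 of 10 SAS spots but 0 of 10 eSAS spots were well above background by the scanner software's criterion. Among the 222 probes that were spotted several times and had a value, 43 (19.4%) were separated in this direction and 40 (18%) in the opposite one. Of the eSAS spots, 6 of 10 were at or below the highest negative control spot of that array (4.62), and 4 of 10 were still significantly above background by the software's weaker criterion. The eSAS signal is thus a bound and not a level.

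The bound was computed against the lowest signal of any probe well above background on the eSAS array (15.2). It gave a log2 difference of -1.51, and the 8 spots that remained after 2 population outliers were left out had an SD of 0.34 between spots. Without this lower limit the log2 difference was -3.40, with single spots between -3.79 and -2.75. Around each MMP2 spot, the 24 nearest unmarked spots that were well above background on both arrays were taken. The medians of their log2 differences ran from -0.035 to 0.038. Spots dim on either array were left out, so a shift of local background at the level of MMP2 was not tested.

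The size of the MMP2 difference depended on how background was subtracted. Before any subtraction the mean pixel values were 80.3 to 103 on the SAS array and 48.8 to 60.4 on the eSAS array, again without overlap, while negative control spots of the eSAS array ran from 40.1 to 51.8. With no background correction the bound was 1.37-fold. With normexp, a model of signal plus local background, the difference was 1.60-fold when spots with a marked background were kept out of the fit. With all spots in that fit the sign turned, to 2.50 on the log2 scale without a lower limit, in a setting where the median of all probes moved to 0.53.

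**Figure D1:**
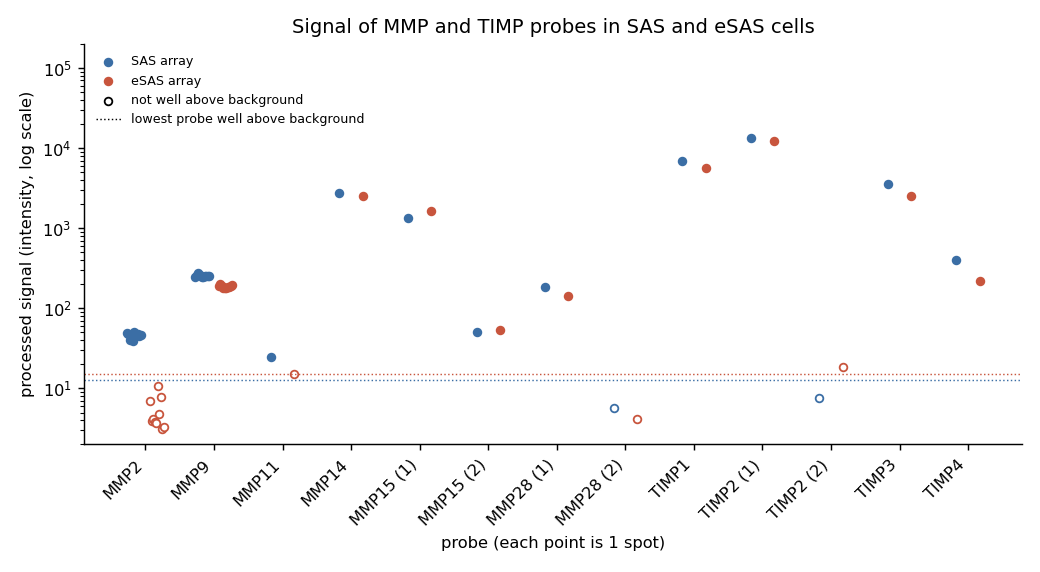
Processed signal (linear intensity on a log axis) of every spot of the 13 probes on the SAS array (blue) and the eSAS array (red), 10 spots each for MMP2 and MMP9 and 1 spot for the others; open points are spots not well above background, and dotted lines mark the lowest signal well above background on each array (12.8 and 15.2). All MMP2 spots of the eSAS array lie under the line, and numbers in brackets tell probes of a gene apart.

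MMP9, the other gelatinase, was also spotted 10 times (chr20:44078528-44078587), and every spot was well above background on both arrays. Signals were 244, 254 and 275 (lowest, median and highest) on the SAS array and 180, 186 and 199 on the eSAS array. The lowest SAS spot was thus above the highest eSAS spot. This is the same kind of separation as for MMP2, seen in this direction for 19.4% of probes spotted several times.

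The log2 difference of MMP9 was -0.39 with an SD of 0.056 between spots (n = 10), and single spots ran from -0.49 to -0.31. All 10 spots were lower in eSAS cells, but 9.33% of the 26659 probes measured on both arrays were at least as low as the mean. The spread between spots covers the 2 arrays only and leaves out variation between cultures. Normexp with all spots in the fit turned the MMP9 difference to 1.16.

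**Figure D2:**
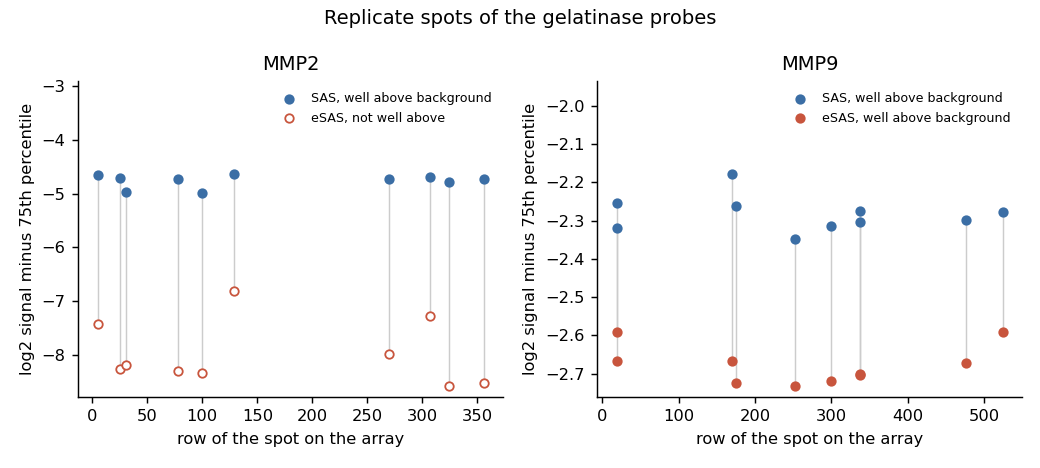
log2 of the processed signal minus the array's 75th percentile for the 10 spots of MMP2 (left) and MMP9 (right), against the row of the spot on the array, with grey lines joining the same spot on both arrays; open points are not well above background. Every eSAS spot lies below its SAS spot, with MMP9 differences between -0.49 and -0.31.

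MMP11, an MMP that furin activates inside the cell, was dim. Its single spot (chr22:22456273-22456332) gave 24.6 in SAS and 15.3 in eSAS, where it was not well above background. By the rule for dim probes it was 1.55-fold lower in eSAS cells, or -0.63 on the log2 scale. Its own eSAS signal was just over the lower limit and was used, so this is a ratio and not a bound. The 6 probes of like brightness that were spotted several times had an SD of 0.28 between spots. The MMP11 difference was -0.20 with normexp without marked backgrounds and -0.15 with no background correction.

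MMP28 (epilysin), which keratinocytes make, had a pair of probes. The probe at chr17:31130186-31130413, which spans 228 bases of genome where the other member probes span 60, had signals of 185 in SAS and 144 in eSAS, a log2 difference of -0.31 against a spot SD of 0.10 at that brightness, with 12.7% of all probes at least as low. With all spots in the normexp fit this difference turned to 1.55. The other MMP28 probe (chr17:31117457-31117516) had signals of 5.63 and 4.19, was not well above background on either array and gives no fold.

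Neither of the membrane enzymes MMP14 and MMP15 passed 2-fold. MMP14, the activator of proMMP2 (chr14:22385631-22385690), had signals of 2777 in SAS and 2515 in eSAS. The log2 difference of -0.088 was about as far from 0 as those of many probes, since 33.4% of all probes measured on both arrays were at least as low. The spot SD at that brightness was 0.040 (71 probes).

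MMP15 had the highest difference of the members, and both of its probes were above 0. The probe at chr16:56637985-56638044 went from 1359 on the SAS array to 1644 on the eSAS array, which is 1.26-fold higher or 0.33 on the log2 scale, against a spot SD of 0.042, and 91.3% of all probes were at or below it. The probe at chr16:56637027-56637086 had signals of 50.7 and 53.8 and a log2 difference of 0.14, smaller than the spot SD of 0.18 at its brightness.

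None of the inhibitors passed 2-fold. The 4 TIMP probes with a value lay below 0, by 1.06-fold to 1.78-fold, where 50.8% of all probes measured on both arrays lay below 0. TIMP4 had the largest difference (chr3:12169728-12169787), with signals of 403 in SAS and 219 in eSAS. This was -0.83 on the log2 scale against a spot SD of 0.079 at that brightness, and 2.08% of all probes were at least as low. The TIMP4 spot lay in row 463, within rows 450 to 510, where most non-uniform spots of the SAS array lay. The spot itself was not marked, and the median of its 24 nearest spots, chosen as for MMP2, was 0.035. The part of that array region in the TIMP4 value was not tested. Normexp with all spots in the fit turned it to 0.70.

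TIMP3, which binds to the matrix and also blocks ADAM proteases (chr22:31588540-31588599), had signals of 3570 in SAS and 2514 in eSAS. It was 1.37-fold lower, or -0.45 on the log2 scale with a spot SD of 0.039 at that brightness, and 7.62% of all probes were at least as low. TIMP1, which binds proMMP9 (chrX:47329610-47329669), had signals of 6952 and 5644 and was 1.19-fold lower (-0.25 on the log2 scale, spot SD 0.037), with 16.1% of all probes at least as low. Both differences exceed the spot SD of replicated probes of like brightness. TIMP3 and TIMP1 each had a single spot, so neither their own spread between spots nor the spread between cultures was measured.

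TIMP2, the bridge between MMP14 and proMMP2, had the smallest difference of the inhibitors. Its probe at chr17:74363249-74363308 had signals of 13495 in SAS and 12315 in eSAS, a log2 difference of -0.078 with a spot SD of 0.036, and 35.3% of all probes were at least as low. A further probe with the TIMP2 name (chr17:74398565-74398624) was designed on a testis cDNA. It was not well above background on either array, at 7.63 and 18.7, and gives no fold.

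**Figure D3:**
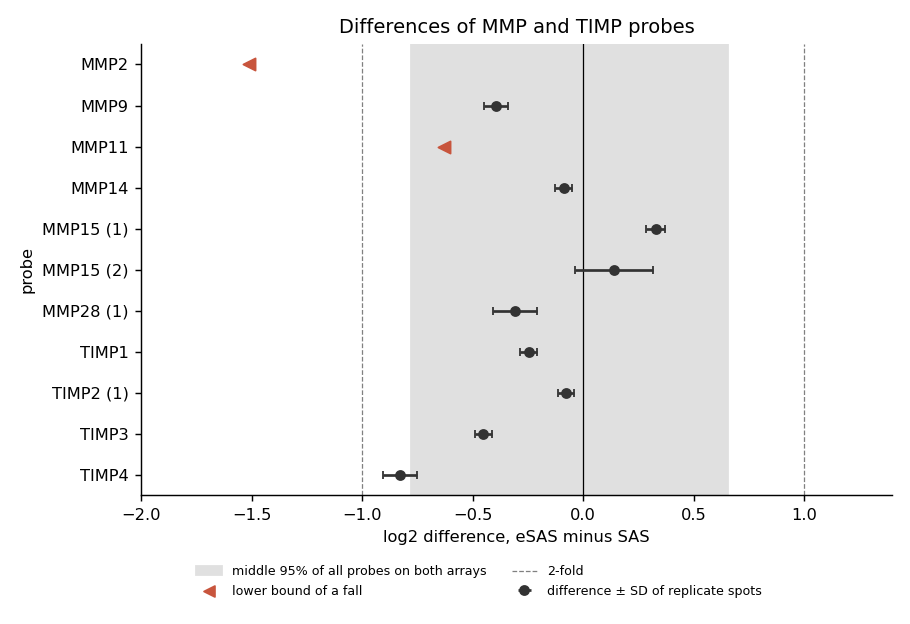
log2 difference (eSAS minus SAS, relative to each array's 75th percentile) of the 11 probes with a value. Bars are the SD between replicate spots, of the probe itself for MMP9 and of replicated probes of like brightness for the others. Triangles are probes well above background on the SAS array only, a bound for MMP2 and a ratio for MMP11. The grey band holds the middle 95% of the 26659 probes measured on both arrays (-0.78 to 0.66); TIMP4 at -0.83 and the MMP2 bound at -1.51 lie outside it.

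Of the 13 probes, 9 were well above background on both arrays, 2 (MMP2 and MMP11) on the SAS array only, and 2 on neither. Of the 11 with a value, 1 was at least 2-fold lower in eSAS cells and 0 were at least 2-fold higher. Over all 28439 probes well above background on at least 1 array, 1.97% were at least 2-fold lower and 1.83% at least 2-fold higher. At 1.5-fold, 3 member probes were lower (MMP2, MMP11 and TIMP4) and 0 higher, against 6.12% and 4.43% of all probes. Among the 9 probes measured on both arrays, 7 lay below 0 and the median log2 difference was -0.25, while 50.8% of all probes measured on both arrays lay below 0 and their median was -0.0039. The members are few and differ in direction, with MMP15 above 0 at both probes.

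**Figure D4:**
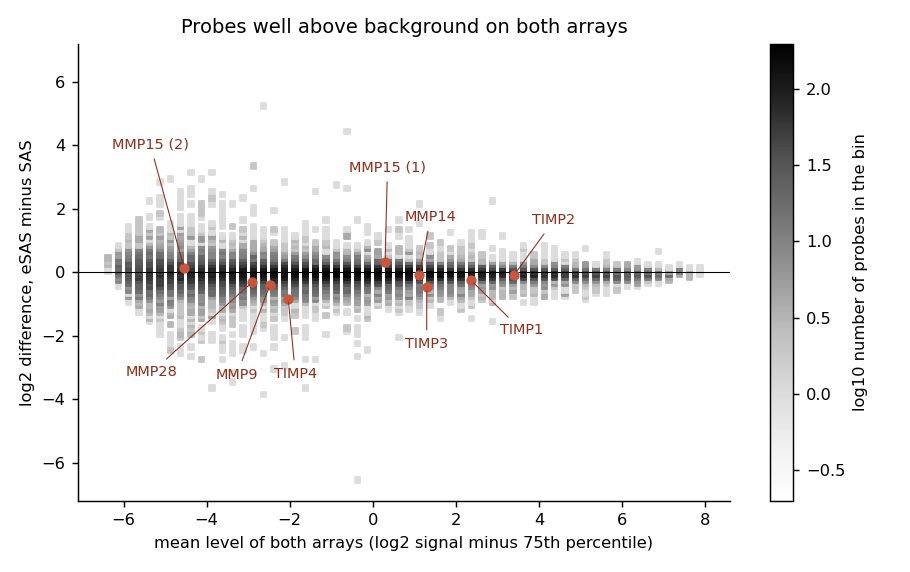
log2 difference (eSAS minus SAS) against the mean level of both arrays (log2 signal minus the 75th percentile) for the 26659 probes well above background on both, binned, with darker squares for more probes; red points are the 9 member probes. The members lie between -0.83 and 0.33, at levels across most of the range.

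Of the 17 other MMP genes on the array, 10 were not well above background on either array, MMP8, MMP10, MMP12 and MMP13 among them. MMP1, the interstitial collagenase, had a mean signal of 352 in SAS (320 to 382) and 17.9 in eSAS (13.3 to 23.5) over the 9 of 10 spots used, and it was not well above background on the eSAS array. It fell 19.2-fold by the rule for dim probes. Its eSAS level was above the lower limit and was used itself, so this fold is a ratio and not a bound. The spot left out was a population outlier of the SAS array in row 463, the row of the TIMP4 spot, and with it the fold was 12.1. The MMP1 probe was the only one of 8 with a value that passed 2-fold (12.5% lower, against 1.97% of all probes). The 6 probes measured on both arrays lay between 0.074 and 0.66, with a median of 0.27, and MMP17, the brightest, was at 0.23.

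Of 40 probes for 24 genes that activate, bind or restrain MMPs, 2 (5%) were at least 2-fold higher and 1 (2.5%) lower. The shares over all probes were 1.83% and 1.97%. The median of the 38 probes measured on both arrays was 0.078. A2M, the plasma protease inhibitor that traps MMPs, rose 21.2-fold, from 172 to 3514. LCN2, the lipocalin that forms a complex with MMP9, rose 6.33-fold, from 344 to 2098. PCSK5, a proprotein convertase, fell at least 2.90-fold, with signals of 45.7 in SAS and 4.04 in eSAS. It was not well above background on the eSAS array, so its bound was taken against the lower limit there (15.2). Each of these values rests on a single spot. The brightest gene, CD63, a tetraspanin that binds TIMP1, was at 0.27.

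None of the 32 probes of 19 transcription and signalling genes that act on MMP promoters passed 2-fold in either direction. Only 1.83% of all probes were at least 2-fold higher and 1.97% lower. The median of the 32 probes was 0.017. JUN, a subunit of AP-1 and the brightest of them, had mean signals of 30075 and 16685 over 10 spots and a log2 difference of -0.80.

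Of the matrix genes whose products MMPs cleave, 6 of 31 probes (19.4%) were at least 2-fold lower and 0 higher. Of all probes, 1.97% were at least 2-fold lower and 1.83% higher. The 6 probes belong to COL5A1, COL17A1, COL4A6 and COL4A5. COL17A1, the hemidesmosomal collagen, fell 5.44-fold at the probe measured on both arrays, from 357 to 63.2, and at least 3.05-fold at the other. COL5A1 fell 5.05-fold, from 566 to 108, and at least 4.55-fold at its other probe. The basement membrane chains COL4A6 (row 461) and COL4A5 fell 2.64-fold and 2.09-fold at a probe each, and their further probes measured on both arrays were at -0.87 and -0.73 on the log2 scale. The median over 27 probes measured on both arrays was -0.28, with 22 below 0, and SPARC, the brightest, was at -0.70.

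**Figure D5:**
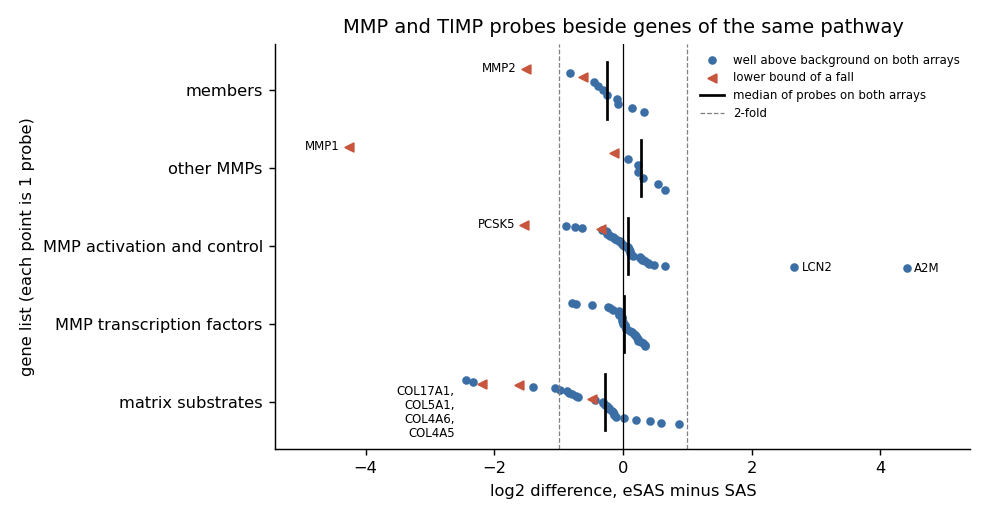
log2 difference (eSAS minus SAS) of each probe with a value, for the 10 member genes and 4 lists of the same pathway. Blue points are probes well above background on both arrays, black bars are medians of the blue points and dashed lines mark 2-fold. Triangles are probes well above background on the SAS array only, which are bounds except for MMP1, MMP11 and ELN, where they are ratios. Medians run from -0.28 for matrix substrates to 0.27 for the other MMPs, and genes past 2-fold are named.

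The label of squamous cells was checked against 13 epithelial markers, of which 12 were well above background on both arrays and PERP had only marked spots. Their summed level (in units of the 75th percentile) was 161 in SAS and 125 in eSAS. 2 of 14 probes (14.3%) were at least 2-fold lower, against 1.97% of all probes. Both were of KRT14, the basal keratin, lower by 95.4-fold and 2.35-fold. The median was -0.50, and the brightest, S100A2, was at -0.53. The part of this shift in the member values was not tested. Since stromal cells are a known source of MMP2, 8 stromal markers were read as well. COL3A1, PDGFRA, PDGFRB and POSTN were not well above background on either array, FAP had only marked spots, and the summed level of the list was 2.61 in SAS and 2.65 in eSAS. LUM was at least 2.40-fold higher in eSAS cells at a spot in row 461, and THY1, the brightest, was at -0.0071. Of the leukocyte and endothelial markers, PTPRC, CD3E and PECAM1 were not well above background on either array. CD14 (215 in SAS, 233 in eSAS), CD68 and VWF (86.0 and 77.1 at the brighter of its probes) were on both, and CDH5 was on the SAS array only. None passed 2-fold, the summed level was 0.816 and 0.887, and CD68, the brightest, was at 0.12.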

How the data were processed

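RNA of SAS and eSAS cells was hybridised to 1-colour arrays of the same slide. The authors deposited the output of Agilent Feature Extraction 10.7.3.1 (named in the submitters' processing notes), whose linear intensity values had been corrected for background and not scaled between arrays. The spot marks, and the p-value of signal over background, which was not used, are as deposited. The authors' series table equalled the processed intensity at every spot.

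From these, log2 processed signals minus each array's 75th percentile were computed with Python 3.11.15, control spots and those with a non-uniform or population outlier mark were dropped, and replicate spots were averaged. A probe was well above background when over 50% of its spots were. When it was so on 1 array only, the higher of its own level and the lower limit was used on the other array. The fold is a bound only where the lower limit was used. Of the 13 probes, 12 were matched to their gene by RefSeq accession. Probe positions are those of the array design in hg18, and exons or UTRs were not assigned. Every probe of the 10 genes is named, and from the lists each gene past 2-fold and the brightest gene; COL3A1 and the other genes not above background, PERP and FAP are named beside their counts, and the result of 1 marker gene is not reported here. The members and lists were chosen with earlier results of these data known. Alternatives were other scalings, background corrections (normexp with an offset of 50, limma 3.58.1 in R 4.3.3), filters, marked spots kept, a fold limit of 1.5 and a mean per gene. Counting was tested on simulated data. Of the probe spots, 69.4% (SAS) and 67.5% (eSAS) were well above background and 0 were saturated.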

Additional observations from a re-analysis of the deposited data

How the results depend on the processing

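Of 127 values of single member probes under other settings, 97 moved by less than the spot SD and 30 by more. The 97 include values that a setting could not change. Examples are those from the authors' series table, which equals the processed signal, and from filters or left-out rows that did not touch the probe. The count is thus no measure of robustness. The sign differed for 3, all under normexp with all spots in the fit (MMP9 1.16, MMP28 1.55 and TIMP4 0.70), and MMP2 had no bound there. MMP2 kept its direction in the others, with a log2 value between -1.57 (no scaling) and -0.45 (no background correction) where the lower limit was kept, and -3.40 without it.

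Member probes at least 2-fold lower numbered 1, and 0 under normexp with all spots, normexp without marked backgrounds, no background correction, median pixels, the filter on both arrays (well above background on each) and a mean per gene, and 3 at 1.5-fold. Member probes at least 2-fold higher numbered 0, and 3 under normexp with all spots and 1 (the further TIMP2 probe) with no filter. The pathway lists held 2 higher probes, and 31 under normexp with all spots and 6 at 1.5-fold. They held 8 lower probes, and 4 under normexp with all spots, median pixels and the filter on both arrays, 5 under normexp without marked backgrounds and no background correction, 13 with no filter and 19 at 1.5-fold.

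Over all probes, 520 were higher and 559 lower (48.2% higher), and these became 11264 and 183 (98.4%) under normexp with all spots, 86 and 156 (35.5%) without marked backgrounds, 125 and 161 with no background correction, 89 and 134 with median pixels, 250 and 335 on both arrays, 1375 and 1536 with no filter, 1261 and 1740 at 1.5-fold, and 196 and 266 with a mean per gene. The cause was not tested, except that the filters and fold limits count more or fewer probes by construction. Both arrays shared a slide, so no fit with slide as a term exists. No paired analysis was possible because each population had 1 array, and for the same reason no array could be left out. Dim probes, MMP2 and MMP11 among them, are limited by signal over background.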
